A study of Mus musculus with 12 samples.

Results

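The nuclear genes of the mitochondrial oxidative phosphorylation system were followed through mouse primordial germ cell development and in germ cells that lack Tet1. Members were all rows whose gene name begins with Nduf, Uqcr or Atp5, is Sdha, Sdhb, Sdhc or Sdhd, or begins with Cox, a digit from 4 to 8 and a letter. The name rule found 90 of 22552 rows in each of the 3 stage tables and 88 of 16394 rows in the knockout table. By name, 38 belonged to complex I, 4 to complex II, 8 to complex III, 18 to complex IV and 15 to the ATP synthase. The other 7 were the complex I assembly factors Ndufaf1 to Ndufaf4, the ATP synthase relatives Atp5s and Atp5sl, and Cox4nb, a neighbour gene of Cox4i1 that encodes no subunit. The tables list 0 rows on the mitochondrial chromosome, so the subunits encoded by mitochondrial DNA were not analysed here.

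The respiratory chain passes electrons from NADH (complex I, NADH dehydrogenase) and from succinate (complex II, succinate dehydrogenase) through coenzyme Q, complex III and cytochrome c to oxygen at complex IV, cytochrome c oxidase. Complexes I, III and IV pump protons across the inner membrane, and the ATP synthase uses the returning protons to make ATP. Complex IV in particular has subunits with paired genes, of which one is used in most tissues and the other in muscle, lung or testis. Primordial germ cells (PGCs) are the embryonic precursors of eggs and sperm; they migrate to the gonad, where female cells enter meiosis and male cells enter mitotic arrest.

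All cells were labelled as PGCs of C57BL/6 mouse embryos. Wild-type cells came from embryonic day 9.5 (E9.5, 2 libraries), day 11.5 (E11.5, 2 libraries) and day 13.5 (E13.5m, 3 libraries). The knockout experiment, whose question is which transcripts depend on Tet1, an enzyme that oxidises 5-methylcytosine in DNA, set 3 wild-type libraries against 2 Tet1 -/- libraries (Tet1-KO), all at day 13.5, with no sex in their labels. The tables also hold a group named E13.5f, which the series design gives as triplicate and which no library title carries. The authors deposited a single pooled value for each group in FPKM, a fragment count divided by transcript length and by the number of mapped fragments. The spread between libraries therefore cannot be shown, sequencing depth is unknown and no replicate could be left out. The SE given with a log2 ratio is the one implied by the deposited test. The labels do not say that replicate libraries were made from different embryos, so these tests measure a spread that may be technical.

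Levels of the 4 stages are given on the scale of the E13.5f table, since the E11.5 columns of the other stage tables differed from it by constant factors of 0.870 and 0.976. In the knockout table, the wild-type values followed the E13.5f column with a median ratio of 1.04 over 10996 rows, and the ratios lay between 0.902 at the 1st percentile and 1.17 at the 99th. The E11.5 to E13.5f and wild type to Tet1-KO comparisons therefore rest on nearly the same E13.5 values, and agreement between them is not independent evidence. Tet1 itself was listed at 6.36 FPKM (wild type) and 0.218 FPKM (Tet1-KO), with a log2 ratio of -4.87 ± 0.67. Each of 13 germ cell markers was at 1 FPKM or more in all 6 columns. Erythroid markers summed to 1923 FPKM at E9.5, with 9 of 11 at 1 FPKM or more and Hbb-b1 at 0, and to between 4.22 and 42.8 FPKM at the later stages, and gonad soma markers summed to 24.7 FPKM at E13.5m, with 5 of 11 at 1 FPKM or more and Foxl2 at 0, against 3.67 FPKM at E11.5 and 5.74 FPKM at E13.5f. In bulk RNA, fewer cells of a type and less RNA per cell cannot be told apart.

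Promoter windows of members, 250 bases before to 50 after the start site (RefSeq, GRCm38.p6), were searched on both strands for the letters bound by factors known to act on respiratory genes: GCGC, any base and then TGCGC for NRF1, CCGGAAG for ETS factors such as GABP, and AAGATGGC for YY1. The ETS and YY1 letters can share their AAG. A window was given for 71 of 90 members, 76 windows in all. NRF1 letters were in 25 percent of these windows against 4.60 percent of all 32851 promoter windows and 6.56 percent of those of genes in the stage tables. ETS letters were in 22.4 percent of member windows against 8.86 percent of all windows, and YY1 letters in 11.8 percent against 2.75 percent. At least 1 of the 3 motifs was found in 51.3 percent of member windows and in 14.7 percent of all windows. In windows of genes in the stage tables, the shares were 11.6 percent for ETS letters, 3.10 percent for YY1 letters and 19.1 percent for at least 1 motif. The windows below belong to the highest-level member at E11.5 for each motif, with the motif letters in capitals, and to Atp5b, the member called in the knockout table. The Uqcrc1 window (chr9:108936398-108936697, plus strand) holds NRF1 letters at 6 and 31 bases after the start; the Cox6a1 window (chr5:115348909-115349208, minus strand) holds NRF1 letters at 162 bases before the start and, on the other strand, NRF1 letters at 117 and ETS letters at 16 bases before it. The Ndufa9 window (chr6:126849095-126849394, minus strand) holds YY1 letters at 30 bases after the start, and the Atp5b window (chr10:128083057-128083356, plus strand) holds none of the 3.
Uqcrc1: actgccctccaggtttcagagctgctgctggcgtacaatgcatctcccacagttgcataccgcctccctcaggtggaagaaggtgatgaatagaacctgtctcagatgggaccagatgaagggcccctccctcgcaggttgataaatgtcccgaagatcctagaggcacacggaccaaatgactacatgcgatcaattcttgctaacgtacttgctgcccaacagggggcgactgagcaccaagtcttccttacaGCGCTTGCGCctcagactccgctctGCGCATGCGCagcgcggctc
Cox6a1: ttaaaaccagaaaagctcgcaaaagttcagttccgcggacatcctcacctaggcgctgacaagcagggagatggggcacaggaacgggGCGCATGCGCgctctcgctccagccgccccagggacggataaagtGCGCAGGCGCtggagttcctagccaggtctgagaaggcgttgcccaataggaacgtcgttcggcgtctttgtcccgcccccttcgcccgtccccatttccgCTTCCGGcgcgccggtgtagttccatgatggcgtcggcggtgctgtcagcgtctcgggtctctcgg
Ndufa9: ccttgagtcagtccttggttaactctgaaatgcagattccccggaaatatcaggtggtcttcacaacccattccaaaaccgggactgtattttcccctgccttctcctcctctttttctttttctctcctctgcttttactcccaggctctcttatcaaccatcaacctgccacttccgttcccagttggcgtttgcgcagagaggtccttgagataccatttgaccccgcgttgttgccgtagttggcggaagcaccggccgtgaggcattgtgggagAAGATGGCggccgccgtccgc
Atp5b: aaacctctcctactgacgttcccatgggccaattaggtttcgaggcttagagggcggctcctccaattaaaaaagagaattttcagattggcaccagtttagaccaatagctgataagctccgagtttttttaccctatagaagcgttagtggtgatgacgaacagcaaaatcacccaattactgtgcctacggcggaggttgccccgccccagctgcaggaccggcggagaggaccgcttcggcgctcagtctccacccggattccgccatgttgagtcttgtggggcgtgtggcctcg

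Levels differed widely between subunits of one complex at every stage. The median member stood at 78.9, 89.3, 96.5 and 86.2 FPKM at E9.5, E11.5, E13.5f and E13.5m. Of the 90 members, 36 were at 100 FPKM or more at E9.5, 43 at E11.5, 42 at E13.5f and 41 at E13.5m. Of all 22552 rows, 5.05, 6.58, 7.66 and 6.75 percent reached that level. Per complex, medians in the same order were 69.8, 77.6, 93.6 and 81.3 FPKM for complex I, 208, 194, 299.7 and 248 FPKM for complex II and 109.7, 119.7, 140.0 and 111 FPKM for complex III. Complex IV had medians of 38.2, 44.3, 56.6 and 48.5 FPKM and the ATP synthase of 131, 165, 175 and 181 FPKM. At each stage complex II had the highest median of the 5 complexes and complex IV the lowest, with no test made of that order. Atp5b, the catalytic beta subunit of the ATP synthase, had the highest level of all members at 1968, 3006, 3646 and 3436 FPKM.

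**Figure D1:**
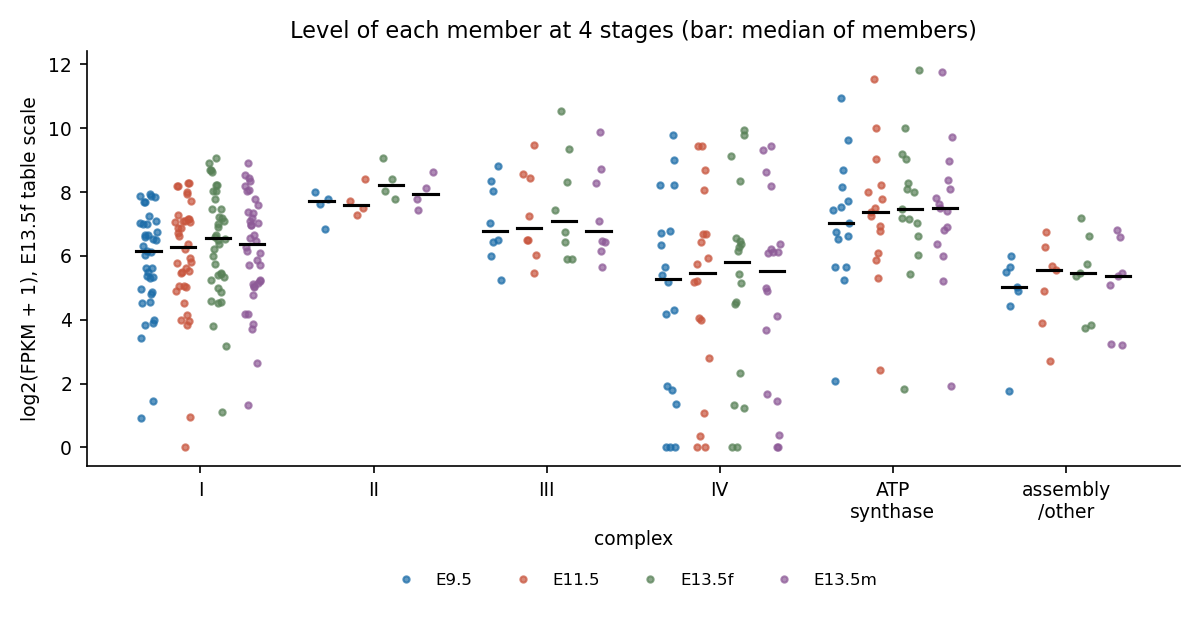
Level of each member at E9.5, E11.5, E13.5f and E13.5m by complex, as log2(FPKM + 1) on the scale of the E13.5f table. Each point is 1 gene, black bars are medians over genes, and no error bar exists because the deposited values are pooled. The highest points are Atp5b; the points at 0 in complex IV include Cox6a2 and Cox8b at all 4 stages.

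Between E9.5 and E11.5, from migrating to gonadal germ cells, no member was called. The authors' deposited table called 0 of 88 tested members, against a background of 3.71 percent of 12904 tested rows called higher at E11.5 and 1.92 percent called lower. At an unadjusted p under 0.05 there were 3 of 88 members, and 19.8 percent of all tested rows; relative to the table median, 0 members were called by a two-sided normal test with Benjamini-Hochberg adjustment, against 1.99 percent of rows higher and 2.9 percent lower. The E11.5 value was the higher in 71 of 88 members (80.7 percent), and in 67.0 percent of all tested rows. The member median change was 0.20 on the log2(FPKM + 1) scale, against 0.29 for all tested rows. Among rows at 1 FPKM or more at both stages the median log2 ratio was 0.20 for members and 0.32 for all rows. Medians per complex were 0.16 for complex I, 0.25 for complex II, 0.21 for complex III, 0.19 for complex IV and 0.35 for the ATP synthase, and 15 of 15 ATP synthase members had the higher value at E11.5.

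The 3 members with an unadjusted p under 0.05 were Ndufs1, Atp5g1 and Cox4i2. Ndufs1, the largest iron-sulfur subunit of complex I, stood at 91.3 FPKM at E9.5 and 153 FPKM at E11.5, a log2 ratio of 0.75 ± 0.29 (p = 0.00903 and q = 0.104 in the authors' deposited table). Atp5g1, 1 of 3 genes for the same c-ring protein of the ATP synthase, had 97.9 and 151 FPKM, a log2 ratio of 0.62 ± 0.22 (p = 0.00546 and q = 0.0762 in the authors' deposited table). Cox4i2, the lung and hypoxia isoform of complex IV subunit 4, had 2.78 and 0.274 FPKM, a log2 ratio of -3.35 ± 1.55 (p = 0.0305 and q = 0.198 in the authors' deposited table). None of these passed the adjusted threshold of 0.05. Among members at 5 FPKM or more in at least 1 group, the largest gain of a structural subunit outside the isoform genes was in Ndufa8, an accessory complex I subunit, from 70.8 to 136 FPKM, and it was not called. Erythroid markers had their highest sum at E9.5, as given above, and their part in these values was not tested.

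Between E11.5 and E13.5f, the complex I relative Ndufa4l2 was the member that rose. It was 1 of 85 tested members, where 9.34 percent of 12448 tested rows were called higher in the authors' deposited table, and 0 members were called lower, against 2.68 percent. In all, 5 of 85 members had an unadjusted p under 0.05, each higher at E13.5f, against 26.5 percent of all tested rows. Relative to the table median, Ndufa4l2 was again the 1 member called, against 6.97 percent of rows higher and 4.15 percent lower. The E13.5f value was the higher in 65 of 85 members (76.5 percent; 62.2 percent of all tested rows), and the member median change was 0.29, against 0.22 for all tested rows. At 1 FPKM or more at both stages the median log2 ratio was 0.29 for members and 0.19 for all rows.

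Ndufa4l2, a hypoxia-responsive relative of Ndufa4 (build mm9, chromosome 10, deposited locus 126951994 to 126959491), was at 1.75, 0.951, 7.98 and 5.20 FPKM at E9.5, E11.5, E13.5f and E13.5m. It was low at the first 2 stages and higher in both E13.5 groups. Its log2 ratio to E11.5 was 3.07 ± 1.003 at E13.5f (p = 0.00222 and q = 0.0257 in the authors' deposited table) and 2.45 ± 1.12 at E13.5m (p = 0.0280 and q = 0.214 in the authors' deposited table). Only the first passed the threshold, and the call was lost at a threshold of 0.01. The difference between the E13.5m and E13.5f ratios did not pass either. Ndufa4, which has been described as a subunit of complex IV as well as of complex I, was at 127, 140.1, 137 and 130.2 FPKM across the same stages. Ndufa4l2 was thus the minor gene of the pair, at 1.36, 0.674, 5.51 and 3.84 percent of their summed FPKM. The deposited locus of Ndufa4l2 is the same as that of its neighbour Shmt2, a mitochondrial serine hydroxymethyltransferase, which stood at 90.5, 56.1, 56.2 and 96.9 FPKM and was not called in any table. Whether shared reads move the Ndufa4l2 value was not tested.

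The other 4 members with an unadjusted p under 0.05 at E13.5f were Uqcrc1, Uqcrc2, Atp5f1 and Ndufaf1. Uqcrc1 and Uqcrc2 encode the paired core proteins of complex III that face the matrix. Uqcrc1 was at 454, 705, 1486 and 935 FPKM at E9.5, E11.5, E13.5f and E13.5m, with a log2 ratio of 1.08 ± 0.41 at E13.5f (p = 0.00898 and q = 0.0649 in the authors' deposited table). Uqcrc2 was at 263, 343, 644 and 420.2 FPKM, with a log2 ratio of 0.91 ± 0.41 (q = 0.134 in the authors' deposited table). Both had their highest value at E13.5f and their lowest at E9.5. The catalytic iron-sulfur protein of the same complex, Uqcrfs1, stood at 326, 381, 320.5 and 309 FPKM, with a log2 ratio of -0.25 ± 0.43, and the small subunits Uqcr10, Uqcrq, Uqcrb, Uqcrh and Uqcr11 lay between -0.13 ± 0.56 and 0.46 ± 0.62. Atp5f1, the b subunit of the ATP synthase stalk, had 186, 256, 519 and 335 FPKM and a log2 ratio of 1.02 ± 0.41 (q = 0.0818 in the authors' deposited table); it shares its deposited locus with Wdr77, whose log2 ratio was 0.03 ± 0.41. Ndufaf1, an assembly factor of the complex I membrane arm, had 49.0, 77.1, 145 and 112 FPKM and a log2 ratio of 0.91 ± 0.43 (q = 0.151 in the authors' deposited table).

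Per complex, the median change at E13.5f was 0.43 for complex I, 0.66 for complex II, 0.24 for complex III, 0.32 for complex IV and 0.19 for the ATP synthase. All 4 complex II members had their higher value at E13.5f, and none was called. Sdha, the flavoprotein that oxidises succinate, had 253, 341, 530.4 and 392 FPKM and a log2 ratio of 0.64 ± 0.40, and Sdhb, the iron-sulfur subunit, had 198, 208, 338 and 278 FPKM and 0.70 ± 0.43. The membrane anchors Sdhc and Sdhd had log2 ratios of 0.75 ± 0.42 and 0.27 ± 0.43. In complex I, the flavin subunit Ndufv1, which accepts electrons from NADH, had 233, 313, 539.7 and 481 FPKM and a log2 ratio of 0.79 ± 0.41. Further core subunits of complex I had log2 ratios of 0.74 ± 0.44 for Ndufv2, 0.74 ± 0.48 for Ndufs3, 0.51 ± 0.44 for Ndufs7 and 0.14 ± 0.48 for Ndufs8. Ndufs1 stood at 153 FPKM at E11.5, 263 FPKM at E13.5f and 217 FPKM at E13.5m, but its test failed in both tables, as did those of Atp5g1 and Ndufb11. In the ATP synthase, by contrast, the alpha subunit Atp5a1 stood at 1028 FPKM at E11.5 and 1027 FPKM at E13.5f, and log2 ratios were 0.28 ± 0.48 for the beta subunit Atp5b and 0.15 ± 0.43 for the gamma subunit Atp5c1. No difference between complexes was tested.

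The accessory subunits of complex I, which surround the catalytic core and assist its assembly and stability, are described here by 7 genes. Over all of complex I, 30 of 36 tested members (83.3 percent) had the higher value at E13.5f than at E11.5, and 62.2 percent of all tested rows did. Ndufb8, of the membrane arm, had 206, 242, 409 and 293 FPKM at E9.5, E11.5, E13.5f and E13.5m, and Ndufa6 had 127, 140.1, 259.5 and 193 FPKM. Both were highest at E13.5f, with log2 ratios of 0.75 ± 0.45 and 0.89 ± 0.47. Ndufa9 and Ndufa10, the most abundant accessory subunits at E11.5, had 243, 293, 410.1 and 321 FPKM and 204, 291, 399 and 369.9 FPKM. Ndufa12 had 38.6, 48.3, 39.6 and 36.8 FPKM with its highest value at E11.5, a log2 ratio of -0.29 ± 0.59 at E13.5f. Ndufa7 had 152, 117, 127 and 165 FPKM and was lower at E11.5 and E13.5f than at E9.5 and E13.5m. Ndufa11, a membrane arm subunit, was at 14.8, 14.5, 12.9 and 13.6 FPKM. None of these 7 genes was called in any table, and each E13.5f log2 ratio lay within 2 of its SEs of 0.

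In complex IV, the nuclear subunits that accompany the mitochondrially encoded core differed in level by large factors. Cox6a1, Cox5a and Cox4i1 were the 3 highest at E13.5f, and Cox5a had 295, 413, 556 and 395 FPKM across the stages. Cox7a2l, a gene of the Cox7a family whose protein links complexes III and IV, had 298, 264, 324 and 289 FPKM. Cox8a had 104, 103, 87.0 and 74.0 FPKM and Cox6b1 109, 102, 93.7 and 82.6 FPKM, both lowest at E13.5m, with log2 ratios to E11.5 of -0.48 ± 0.56 and -0.31 ± 0.56. Cox5b, Cox6c and Cox7c were at 36.2, 60.6 and 52.3 FPKM at E11.5 and at 42.3, 82.4 and 70.9 FPKM at E13.5f. In the ATP synthase, Atp5g3 of the c-ring had 173, 182, 275 and 196 FPKM with a log2 ratio of 0.60 ± 0.47 at E13.5f. The delta subunit Atp5d had 287, 294, 254 and 221 FPKM and log2 ratios of -0.21 ± 0.43 at E13.5f and -0.41 ± 0.45 at E13.5m. Atp5o, the stalk subunit that confers oligomycin sensitivity, had 131, 165, 175 and 181 FPKM, with log2 ratios of 0.09 ± 0.45 and 0.13 ± 0.47. None of these genes was called at either E13.5 group.

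Between E11.5 and E13.5m, no member was called. The counts were 0 of 84 tested members in either direction in the authors' deposited table, against 2.94 percent of 12311 tested rows called higher and 1.94 percent called lower. Ndufa4l2 alone had an unadjusted p under 0.05, a level that 17.2 percent of all tested rows reached, and 0 members were called relative to the table median by the two-sided normal test, against 3.17 percent of rows higher and 2.19 percent lower. The member median change was 0.07, against 0.05 for all tested rows. The E13.5m value was the higher in 49 of 84 members (58.3 percent), and in 53.0 percent of all tested rows. Medians were 0.13 for complex I, 0.31 for complex II, 0.05 for complex III, -0.12 for complex IV and 0.07 for the ATP synthase. The largest complex I gain after Ndufa4l2 among members with an SE was in Ndufv3, a small flavoprotein subunit, at 42.9 FPKM at E11.5 and 67.1 FPKM at E13.5m (0.65 ± 0.42 on the log2 scale), ahead of Ndufv1 at 0.62 ± 0.42. E13.5m and E13.5f were compared through the difference of their log2 ratios to E11.5, by a two-sided normal test, adjusted by Benjamini-Hochberg over 10677 genes. The SE of that difference counts the error of the shared E11.5 values in both ratios and is too wide, which makes calls fewer. The test called 0 of 77 members, and 0 had an unadjusted p under 0.05, where 0.169 percent of genes were called and 3.76 percent had an unadjusted p under 0.05. The member median difference was -0.27, against -0.24 for all genes, with a median SE of 0.714, and it was -0.67 ± 0.59 for Uqcrc1 and -0.63 ± 0.59 for Atp5f1.

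**Figure D2:**
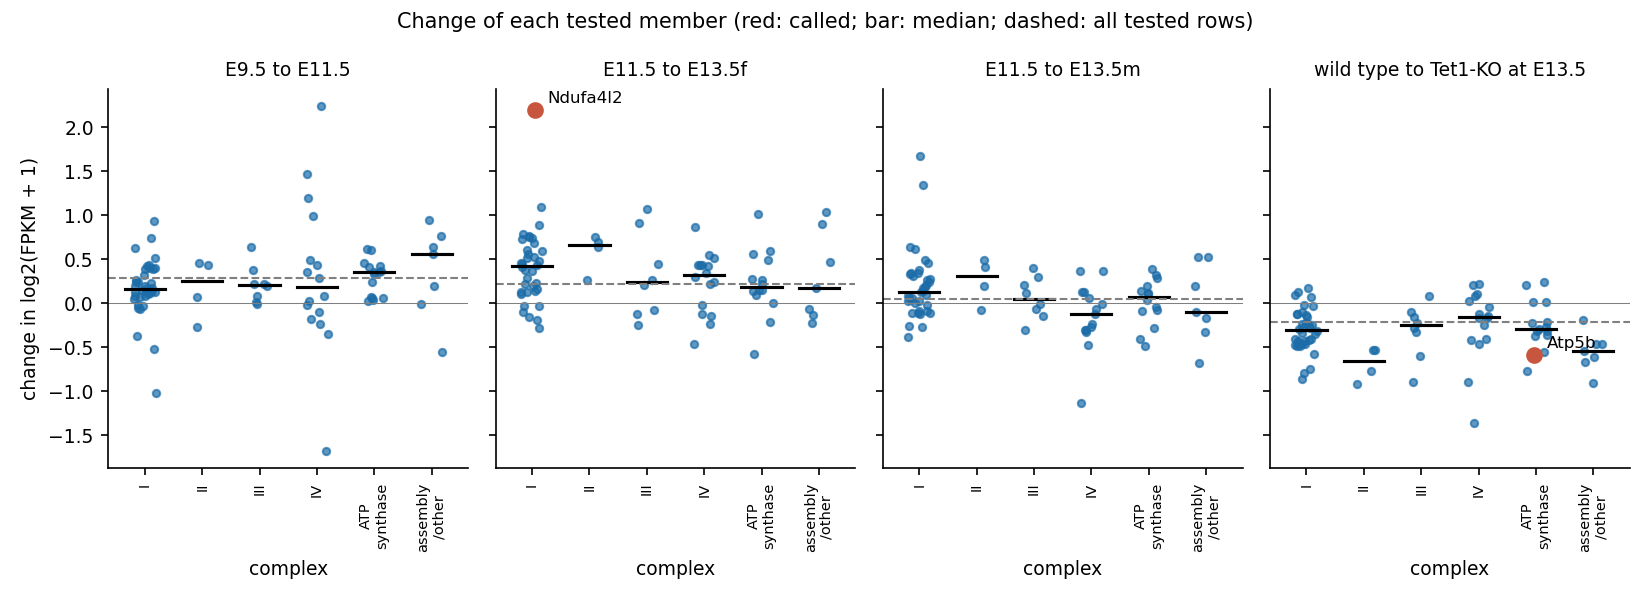
Change in log2(FPKM + 1) of each tested member in the 4 comparisons, by complex. Each point is 1 gene, red points are the genes called in the authors' deposited tables, black bars are medians over genes of a complex and dashed lines are medians over all tested rows. The 2 red points are Ndufa4l2 at E13.5f and Atp5b in Tet1-KO.

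In germ cells lacking Tet1, Atp5b fell and no other member was called. The authors' deposited table called 1 of 88 members lower, against 5.48 percent of 16394 tested rows, and 0 higher, against 0.677 percent. In all, 9 members had an unadjusted p under 0.05, each lower in Tet1-KO, and 21.4 percent of all rows did. The Tet1-KO value was the lower in 74 of 88 members, while 15.9 percent of members and 26.3 percent of all tested rows had the higher value. Tested rows include some at 0 in both groups, which are neither higher nor lower. The member median change was -0.30, against -0.21 for all tested rows on the log2(FPKM + 1) scale. Among rows at 1 FPKM or more in both groups, the median log2 ratio was -0.30 for members and -0.38 for all rows, so the member median lay below that of all rows on the first scale and above it on the second. Column totals were 775559 FPKM for wild type and 577828 FPKM for Tet1-KO, and germ cell markers summed to 5233 and 3774 FPKM. Gonad soma markers summed to 5.60 and 11.3 FPKM, with 1 and 4 of 9 at 1 FPKM or more, and mesenchyme markers to 253 and 360.5 FPKM, with 2 of 4 at 1 FPKM or more in both. The part of these differences in the member values was not tested.

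Atp5b (build mm9, chromosome 10, deposited locus 127520362 to 127527444) stood at 3829.5 FPKM for wild type and 2556 for Tet1-KO, a log2 ratio of -0.58. The authors' deposited table lists its p-value and FDR as 0. The implied SE is at most 0.0728, whereas in the 3 stage tables the SE of Atp5b was 0.51, 0.48 and 0.50, and in the knockout table the other 14 genes of the catalytic list below had SEs from 0.28 to 1.78. Among 126 rows at 500 FPKM or more in both groups, the median SE was 0.309, and 9 rows had an SE under 0.1, all of them called. The SE is derived from the p-value behind the call, so these calls are no separate observation. A log2 ratio of -0.58 thus passed the threshold in Atp5b, while more negative ratios in other members did not. Relative to the table median, with the SE at its upper limit, 0 members were called, against 1.92 percent of rows higher and 1.64 percent lower, and the call was also lost with a minimum log2 ratio of 1.

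The catalytic list of 15 genes, chosen with earlier results of these data known, had a median change of -0.56, against -0.26 for the 73 other members. It holds 7 core subunits of complex I, all 4 of complex II with its membrane anchors, Uqcrfs1 and the alpha, beta and gamma subunits of the ATP synthase. No complex IV gene is in it, and Cyc1 was placed among the electron carriers instead. The median log2 ratio of the list was -0.56, against -0.38 for all rows at 1 FPKM or more in both groups. All 15 had the lower value in Tet1-KO, while 26.3 percent of all tested rows had the higher value. Those rows include some at 0 in both groups, so the remaining rows were not all lower. Of the 15, 5 had an unadjusted p under 0.05, against 21.4 percent of all rows. Atp5b alone was called, where 5.48 percent of all rows were called lower. Ndufs1 stood at 276 FPKM for wild type and 158 for Tet1-KO (-0.80 ± 0.28, FDR = 0.0541 in the authors' deposited table). Ndufv1 stood at 566 FPKM for wild type and 309.9 for Tet1-KO (-0.87 ± 0.34, FDR = 0.103 in the authors' deposited table). In complex II, Sdhc stood at 276 FPKM for wild type and 146 for Tet1-KO (-0.92 ± 0.32, FDR = 0.0554 in the authors' deposited table) and Sdha at 556 FPKM for wild type and 324 for Tet1-KO (-0.78 ± 1.78), the widest error of the list. Sdhb and Sdhd had log2 ratios of -0.53 ± 0.32 and -0.53 ± 0.32. At the other end of the list, Uqcrfs1 stood at 336 FPKM for wild type and 301 for Tet1-KO (-0.16 ± 0.30). Outside the list, an unadjusted p under 0.05 was reached by Uqcrc1 (1557 FPKM for wild type and 839 for Tet1-KO, log2 ratio -0.89 ± 0.43), Atp5f1 (551 FPKM for wild type and 321 for Tet1-KO, -0.78 ± 0.32), Ndufaf1 (153 FPKM for wild type and 81.1 for Tet1-KO, -0.92 ± 0.34) and Atp5sl (54.9 FPKM for wild type and 34.1 for Tet1-KO, -0.69 ± 0.34). None of these 4 was called. Medians per complex were -0.31 for complex I, -0.65 for complex II, -0.25 for complex III, -0.16 for complex IV and -0.29 for the ATP synthase, and -0.54 for the 7 assembly factors and others.

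**Figure D3:**
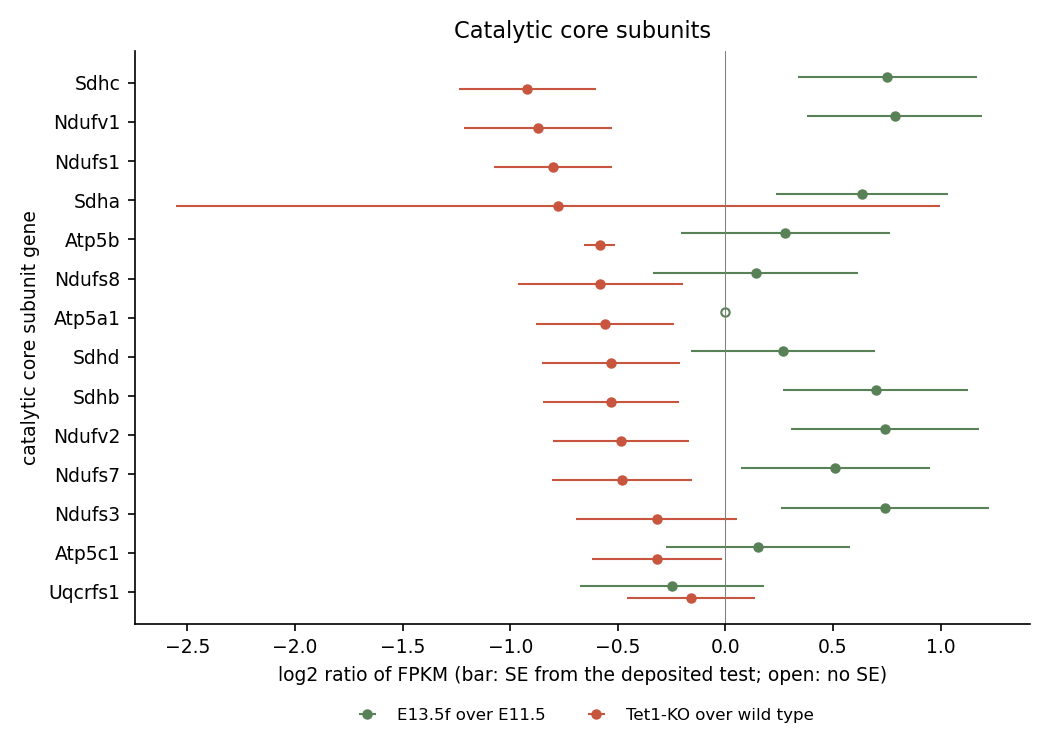
Log2 ratio of 14 of the 15 genes of the catalytic list at E13.5f over E11.5 (green) and in Tet1-KO over wild type (red), with the SE implied by the deposited test as bars. The open point has no SE, and Ndufs1 has no E13.5f point because its test failed. The wild-type and E13.5f values are nearly equal row by row, so both colours share them; Atp5b has the shortest bar and Sdha the longest.

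The catalytic genes also had longer transcripts. Their median length in the GENCODE annotation was 1623 bases, from 870.5 to 3171, against 681.5 bases for the 68 other structural subunits, and 83 of 83 structural subunits had a length. Across subunits, transcript length had a Spearman correlation of -0.39 with the Tet1-KO log2 ratio (Pearson -0.22, 81 genes) and of 0.26 with the E13.5f log2 ratio (Pearson 0.20, 77 genes), a description over genes that share the same libraries. Subunits under the median length had a median Tet1-KO log2 ratio of -0.24 and longer subunits -0.40. Over all rows at 1 FPKM or more split at a similar length, the values were -0.12 for 278 shorter and -0.40 for 8743 longer genes. The Spearman correlation with length over all such rows was 0.17 in Tet1-KO (9021 genes) and -0.10 at E13.5f (7976 genes). Both correlations are opposite in sign to those over subunits, whereas the Tet1-KO split by length went the same way over all rows as over subunits. These summaries therefore differ on whether the whole table shares the Tet1-KO trend over subunits. Among subunits of 755 bases or more, the median Tet1-KO log2 ratio was -0.56 for the 15 catalytic genes and -0.29 for 27 others. Length also went with level, with a Spearman correlation of 0.39 with log2 FPKM at E11.5 over 80 subunits. The part of length in the differences between subunits was not tested.

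**Figure D4:**
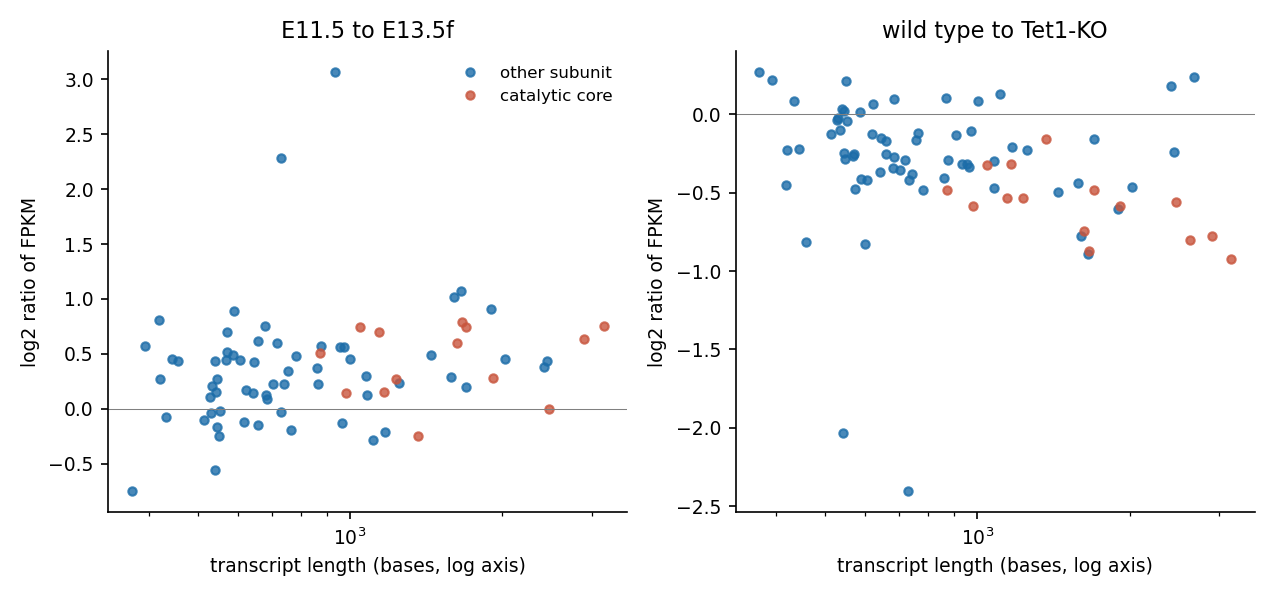
Transcript length (bases, log axis) of structural subunits against the log2 ratio at E13.5f over E11.5 (left) and in Tet1-KO over wild type (right). Each point is 1 gene and red points are the catalytic list. The red points lie at 870.5 bases or more, and in Tet1-KO all of them lie below 0.

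None of the tissue, testis and inducible isoforms was called from E9.5 to E11.5, and their shares of a pair are given as values, with no test. The share was higher at E11.5 than at E9.5 for Cyct, Cox6b2, Cox7a1, Cox7b2 and Cox8c, and lower for Cox4i2 and Ndufa4l2. Cyct, the testis cytochrome c gene, was read beside Cycs although neither is a member by name; it made up 18.0, 29.6, 39.9 and 34.9 percent of their summed FPKM at E9.5, E11.5, E13.5f and E13.5m. Cox6b2, the testis isoform of complex IV subunit 6b, stood at 17.2, 34.9, 34.4 and 28.8 FPKM, beside the common form Cox6b1. The share of Cox6b2 was 13.6, 25.5, 26.8 and 25.9 percent, lowest at E9.5 and similar at the 3 later stages, and its log2 ratio from E9.5 to E11.5 was 1.02 ± 0.83. Cox7a1, the heart and skeletal muscle isoform of subunit 7a, had 2.50, 15.05, 22.4 and 11.8 FPKM beside Cox7a2 at 79.9, 84.9, 76.4 and 68.6 FPKM, a share of 3.03, 15.05, 22.7 and 14.7 percent. Its log2 ratio from E9.5 to E11.5 was 2.59 ± 1.41, and it was not called. Muscle markers summed to 13.1 FPKM at E9.5, 6.80 at E11.5, 7.38 at E13.5f and 3.61 at E13.5m. In the same order, 3, 4, 2 and 1 of 12 were at 1 FPKM or more, and Ckm was at 0 at the first 3 stages. The part of muscle cells in the Cox7a1 values was not tested. Cox7b2, the testis isoform of subunit 7b, had 1.59, 5.95, 4.05 and 2.19 FPKM, a share of 7.79, 27.4, 15.8 and 11.7 percent of its pair with Cox7b. Its highest value was at E11.5, and the log2 ratio from E9.5 was 1.91 ± 1.54. No isoform of complex IV was called in any table.

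The remaining isoforms of complex IV were low. Cox4i2 made up 0.314, 0.0394, 0.151 and 0.0453 percent of its pair with Cox4i1, which stood at 884, 693, 879 and 691 FPKM and was among the highest complex IV genes. Cox8c, the testis isoform of subunit 8, was listed at 0 at E9.5 and had 1.12, 1.51 and 1.72 FPKM later, beside the common form Cox8a. Cox6a2 and Cox8b, the muscle isoforms of subunits 6a and 8, were listed at 0 at all 4 stages and have no row in the knockout table. Cox6a1, the common form of subunit 6a, was at 512, 693, 993 and 635 FPKM. For the c-ring, Atp5g1, Atp5g2 and Atp5g3 had 151, 219 and 182 FPKM at E11.5, and 146, 308 and 275 FPKM at E13.5f. Atp5g2 was the highest of the 3 in each stage column. In the knockout table the isoform shares were 25.8 percent in wild type and 26.9 percent in Tet1-KO for Cox6b2, 22.3 percent in wild type and 27.3 percent in Tet1-KO for Cox7a1 and 5.66 percent in wild type and 4.66 percent in Tet1-KO for Ndufa4l2. Cox7b2 had 4.19 FPKM for wild type and 1.02 for Tet1-KO, a log2 ratio of -2.04 ± 1.33, and Cyct had a share of 42.8 percent in wild type and 44.2 percent in Tet1-KO.

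**Figure D5:**
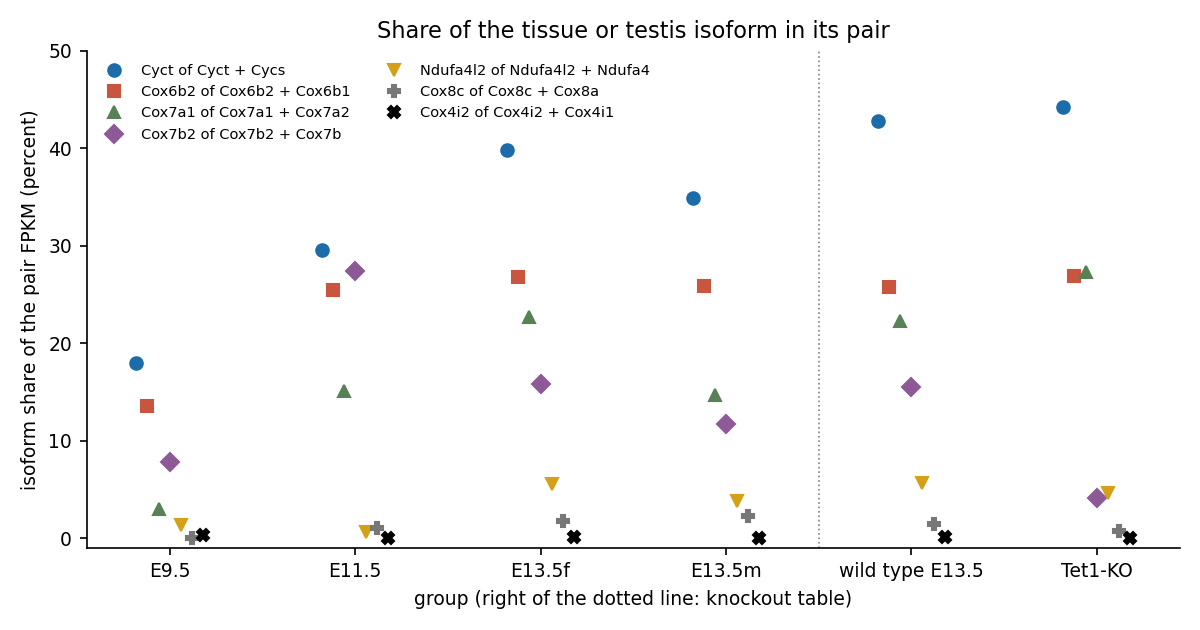
Share of the tissue, testis or inducible isoform in the summed FPKM of its gene pair, in percent, for 7 pairs in 6 groups. Each point is 1 pooled value with no error bar, and groups right of the dotted line come from the knockout table. The Cyct, Cox6b2 and Cox7a1 shares are lowest at E9.5, and the Cox4i2 share is under 1 percent in every group.

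Genes that feed the chain, build it or regulate it were read beside the subunits in 4 lists. At E13.5f, 9.34 percent of all tested rows were called higher, and nothing is read about the lists from counts as small as those that follow. There, 2 of 15 tested genes of electron carriers and coenzyme Q synthesis rose and 0 fell. They were Etfdh, which passes electrons from fatty acid oxidation to coenzyme Q (35.9 to 140.3 FPKM, log2 ratio 1.96 ± 0.42, q = 2.11e-04 in the authors' deposited table), and Etfa, a subunit of its electron donor (174 to 437 FPKM, 1.33 ± 0.40). Of 25 tested assembly factors outside the name rule 1 rose: Lyrm7, which helps insert the iron-sulfur protein into complex III, from 0.648 to 8.84 FPKM (3.77 ± 0.90). Of 18 citrate cycle and pyruvate dehydrogenase genes 2 rose, Dld (1.28 ± 0.42) and Idh3g (1.11 ± 0.40), and of 12 tested biogenesis regulators 0 rose and 0 fell. The median changes of the 4 lists were 0.51, 0.43, 0.36 and -0.25, in the order named. At E13.5m, Lyrm7 alone rose (3.34 ± 0.93), 1 of 25 assembly factors against 2.94 percent of all tested rows, and at E11.5 against E9.5 no gene of the 4 lists was called, among 16, 26, 18 and 15 tested.

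In Tet1-KO, 1 of 17 carrier and coenzyme Q genes fell, 4 of 27 assembly factors, 1 of 18 citrate cycle genes and 1 of 17 regulators, and 0 rose. Of all tested rows, 5.48 percent were called lower, so the counts of 1 are near the background and say nothing particular about those lists. The count of 4 is also small, in a list chosen with earlier results of these data known, and nothing is read about that list from it. Etfdh stood at 148 FPKM for wild type and 67.0 for Tet1-KO (-1.14 ± 0.33, FDR = 0.0181 in the authors' deposited table). The assembly factors were Cox10, a heme synthesis enzyme for complex IV (38.5 FPKM for wild type and 14.6 for Tet1-KO, -1.40 ± 0.36), Lyrm7 (9.20 FPKM for wild type and 2.24 for Tet1-KO, -2.04 ± 0.65), and the complex I factors Ecsit (-1.17 ± 0.36) and Acad9 (-1.11 ± 0.34). The regulator was Nrf1, the factor of the NRF1 motif, at 128 FPKM for wild type and 76.7 for Tet1-KO (-0.74 ± 0.25, FDR = 0.0476 in the authors' deposited table), and the citrate cycle gene was Pdhx (-1.03 ± 0.32), a pyruvate dehydrogenase component. The median change of structural subunits with NRF1 letters in their windows was 0.17 from E9.5 to E11.5 (17 genes), against 0.19 for the 49 without. It was 0.49 with and 0.27 without at E13.5f, 0.11 and 0.03 at E13.5m, and -0.29 and -0.22 in Tet1-KO. With ETS letters, the medians with and without were 0.10 and 0.23 from E9.5 to E11.5, 0.25 and 0.37 at E13.5f, -0.03 and 0.07 at E13.5m, and -0.25 and -0.25 in Tet1-KO. For YY1 letters (9 genes with them), the medians with and without were 0.23 and 0.14 from E9.5 to E11.5. They were 0.46 and 0.27 at E13.5f, 0.13 and 0.03 at E13.5m, and -0.34 and -0.23 in Tet1-KO. No test was made of these differences. NRF1 ranges overlapped: in Tet1-KO they ran from -0.89 to 0.20 with the letters and from -1.36 to 0.24 without.

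Some members could not be read cleanly. Ndufs5 was listed at 0.900, 0, 1.14 and 1.499 FPKM, far below all other structural complex I subunits except Ndufa4l2, while BC002163, a row with the same deposited locus, stood at 78.5, 101, 165 and 125 FPKM. Atp5j was at 142 FPKM at E13.5f and 53.3 FPKM in the wild-type column, although these columns otherwise agree, and it shares its locus with Gabpa. Atp5k, the e subunit of the ATP synthase, was at 3.21, 4.34, 2.58 and 2.83 FPKM and has a named pseudogene. In all, 10 members share a deposited locus with another row and 5 have a named pseudogene, and how the authors' counting split such reads was not tested. The median SE of a member was 0.54 in log2 units from E9.5 to E11.5, 0.50 to E13.5f, 0.52 to E13.5m and 0.41 in Tet1-KO. The 95 percent interval lay within a 2-fold change for 2 of 79, 2 of 82, 9 of 79 and 22 of 86 members with an SE, and within a 4-fold change for 69, 73, 73 and 80. For most members a 2-fold difference was therefore not excluded, and a missing call does not show an equal level.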

How the data were processed

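PGC messenger RNA was amplified from 400 to 5000 cells (E9.5, E11.5, E13.5m) or 500 to 2000 cells (wild type and Tet1-KO at E13.5) with a low-input kit giving 2 to 70 ng of cDNA, which was sheared by sonication before Illumina sequencing, per the labels' protocols. The submitters' processing notes give build mm9, alignment tools TopHat 1.3.1 and Bowtie, and for both Cuffdiff and Cufflinks version 1.2.1 in stage samples and 1.0.3 in knockout samples. The authors deposited 4 tables with 1 FPKM value per group, pooled over libraries, per the file headers. The p-value and q-value or FDR of each row are the authors' deposited ones, and the test statistic of the stage tables and the FDR are scores as deposited by the authors (2182 FDR values exceed 1). Column totals ranged from 577828 to 775559 FPKM, and read depth is unknown.

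Calls are the authors' significance flag at 0.05 over rows with a completed test. Log2 ratios were recomputed from FPKM. The SE is the ratio over the deposited statistic or, in the knockout table, over the normal deviate of the p-value (a p of 0 was set to the smallest positive p), where the deviate exceeded 0.05. List medians use log2(FPKM + 1), so the change of a low gene is understated. Tests relative to the table median and of E13.5m against E13.5f are two-sided normal tests, adjusted by Benjamini-Hochberg over all rows with an SE. Both were run on simulated data with noise drawn from the same SEs and with added changes larger than those of members. The simulated E13.5m and E13.5f ratios shared no E11.5 error. Those runs therefore cannot show how the tests do at the sizes reported here. The SE of the difference between E13.5m and E13.5f combines the SEs of both ratios as if they were independent. It thus counts the error of the shared E11.5 libraries in both and is too wide. Deposited loci are merged over overlapping genes. The members, lists and the rule for named genes were chosen with earlier results of these data known. The rule named called members, the largest changes and highest levels per complex, isoform pairs, a list of 15 catalytic subunits and called genes of 4 pathway lists; 1 gene that the rule names is not reported here, and Shmt2, Wdr77, Gabpa and BC002163 were named after their values were seen. Promoter windows are from RefSeq and lengths from GENCODE, matched by symbol. Alternatives were a pseudocount of 0.1, 1 row per symbol, centring, a log2 ratio of at least 1, at least 1 FPKM in a group, a recomputed adjustment, a threshold of 0.01 and, added after seeing the data, structural subunits only. The software was scipy 1.17.1, pandas 2.3.3, numpy 2.4.6 and matplotlib 3.10.9 under Python 3.11.15.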

Additional observations from a re-analysis of the deposited data

How the results depend on the processing

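Of 71 alternatives computed, 66 kept the direction and the side of the threshold of their result. Many of the 66 start from a count of 0 members called, which a stricter setting cannot change. The share kept is therefore no measure of robustness. Relative to the table median, the member median from E9.5 to E11.5 turned from 0.20 to -0.0917 and that of Tet1-KO from -0.30 to 0.0347. The count of members called higher at E13.5f was 0 at a threshold of 0.01. The count of members called lower in Tet1-KO was 0 with a minimum log2 ratio of 1 and 0 relative to the table median, where the SE of Atp5b is an upper limit. The cause of the other changes was not tested. No paired analysis was possible because the tables hold pooled values with no value per library, and for the same reason no replicate could be left out. The SE exceeded 1 in log2 units in at least 1 table for Ndufa4l2, Cox7a1, Cox4i2, Cox7b2, Cox8c, Atp5k, Ndufa1, Ndufb4, Ndufs5 and Sdha, and for Ndufa4l2 it did so in all 3 stage tables.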
